A study of Mus musculus with 8 samples.

Results

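The 33 genes described here make cholesterol and fatty acids, sense sterols, or export cholesterol. They were chosen by gene symbol from the 47729 genes of the deposited count table, and all 33 had enough reads to be tested. They comprise 8 genes from acetyl-CoA to squalene, 10 from squalene to cholesterol, 6 of sterol sensing and transport, 6 of fatty acid synthesis and desaturation, and 3 of the liver X receptor arm.

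The study measured RNA from leukaemic cells in which Fubp1, a gene for a single-stranded DNA and RNA binding protein, had been targeted by a short hairpin RNA (shRNA). Per the series' design text and labels, C57BL/6 donors were treated with 5-fluorouracil, and their marrow was infected with a retrovirus for the oncogenic fusion kinase BCR-ABL1 and a red fluorescent reporter (RFP), which models chronic myeloid leukaemia. The same cells received a pLKO.1 lentivirus that carried a Venus reporter with either an shRNA against Fubp1 or a scrambled shRNA, and were given to recipients irradiated with 900 cGy. Cells of recipient bone marrow that were lineage-negative, positive for both reporters and unstained by DAPI were sorted, 1 library per recipient mouse, with 4 mice in each group. Both groups therefore carried BCR-ABL1, the reporters and the transplant, and differed in the shRNA. The sources used here give neither the hairpin sequence nor the age of the mice, nor whether donors were pooled. Libraries are named by group and replicate number below. The labels do not say whether a number pairs a scrambled with a knockdown mouse.

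Total counts per library ran from 22465303 to 44761356. Expression is given as CPM, read counts scaled to the library total and to composition factors, with mean ± SD over 4 libraries per group. The targeted gene, Fubp1, was at 296, 284, 291 and 396 CPM in scrambled replicates 1 to 4 and at 281, 228, 220.2 and 239 CPM in knockdown replicates 1 to 4. The groups did not overlap, but the highest knockdown and the lowest scrambled library were close. The log2 fold change of Fubp1, knockdown minus scrambled, was -0.39 (SE 0.12) and missed the threshold by edgeR's quasi-likelihood test with Benjamini-Hochberg adjustment (adjusted p = 0.0604), while DESeq2 called it lower (adjusted p = 0.0145). The directions below are therefore those of libraries labelled as knockdown, in which most of the Fubp1 RNA was still present.

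Cells make cholesterol from acetyl-CoA through mevalonate, isoprenoid units and squalene, and then through a series of reactions on the sterol rings. Transcription of these enzymes is driven by SREBP2, encoded by Srebf2, and that of fatty acid enzymes more by SREBP1, encoded by Srebf1. SCAP carries both factors to the Golgi, where they are cut into their active form, and the INSIG proteins hold SCAP back in the endoplasmic reticulum when sterols are abundant. Liver X receptors act on the opposite side: they are activated by oxidised sterols and raise the exporters ABCA1 and ABCG1. SREBPs bind a sterol regulatory element and act with the neighbouring factors NF-Y and Sp1.

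RefSeq promoter windows on GRCm38.p6, from 250 bases before to 50 after each start site, were at hand for 26 of the 33 members, in 34 windows. No window was at hand for Abcg1, Scd1, Scd2, Fdps, Fdft1, Sqle or Stard4. Both strands were searched for 5 motifs. The sterol regulatory element searched, TCACNCCAC, was in 1 of the 34 windows, that of Hmgcs1, and in 1.24% of all 32851 windows in the table. The NF-Y box CCAAT was in 21 windows of 20 members, 61.8% of the member windows against 37.4% of all windows and 37.9% of those of tested genes. The Sp1 box GGGCGG was in 73.5% of the member windows, 35.7% of all and 61.9% of those of tested genes. The E box CACGTG was in 20.6%, 7.15% and 10.2%, and the liver X receptor repeat (AGGTCA, any 4 bases, AGGTCA) was in 0 member windows and 0.0152% of all. Each motif was counted on its own, so matches can overlap, windows of 1 gene can share bases, and a match is a run of letters, not a bound site.

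The upstream bases of 3 early enzymes are shown because these genes rose in the knockdown libraries. The Hmgcs1 promoter carries the element, and those of Mvk and Mvd were added after their values were seen. Capitals mark the sterol regulatory element and CCAAT or its reverse complement ATTGG. The stretches are the 250 bases before the start site of Hmgcs1 (chr13:119690101-119690350, plus strand), Mvk (chr5:114444019-114444268, plus strand) and Mvd (chr8:122443423-122443672, minus strand).
Hmgcs1: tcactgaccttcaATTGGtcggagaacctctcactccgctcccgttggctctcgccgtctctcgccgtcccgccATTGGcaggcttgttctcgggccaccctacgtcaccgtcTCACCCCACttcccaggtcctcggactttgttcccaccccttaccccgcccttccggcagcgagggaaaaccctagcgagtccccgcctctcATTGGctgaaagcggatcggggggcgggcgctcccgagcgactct
Mvk: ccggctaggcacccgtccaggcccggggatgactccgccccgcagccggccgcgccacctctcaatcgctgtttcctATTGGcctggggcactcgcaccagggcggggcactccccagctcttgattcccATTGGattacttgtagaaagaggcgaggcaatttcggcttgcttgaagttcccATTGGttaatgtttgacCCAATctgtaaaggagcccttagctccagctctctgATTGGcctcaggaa
Mvd: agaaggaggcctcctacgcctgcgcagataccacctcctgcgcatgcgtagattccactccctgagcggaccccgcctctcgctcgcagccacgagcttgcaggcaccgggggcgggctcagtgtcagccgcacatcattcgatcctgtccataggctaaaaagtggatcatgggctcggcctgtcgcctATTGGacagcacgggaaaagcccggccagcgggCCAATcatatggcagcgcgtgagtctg
In Hmgcs1 the element, TCACCCCAC, starts at -137 from the start site, between ATTGG runs that start at -176 and -45. Mvk has 5 NF-Y boxes in its window, 4 of them as ATTGG, and Mvd has 2, at -60 and -27. The element was not found in the Mvk or Mvd window by these letters.

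Of the 33 members, 4 were higher and 1 was lower in the knockdown libraries by edgeR's quasi-likelihood test at an adjusted p under 0.05, and 28 were not called. The higher ones were Hmgcs1, Mvk, Mvd and Abcg1, and the lower one was Insig2. That is 12.1% of the members called higher, beside 8.02% of all 13462 tested genes, and 3.03% called lower, beside 7.29%. The fitted difference was above 0 in 29 members and below 0 in 4. The median log2 fold change of the members was 0.29, beside 0.00 over all tested genes, of which 50.2% were above 0. The groups did not overlap in 3 members with the knockdown higher (Hmgcs1, Mvk and Abcg1) and in 1 with it lower (Insig2), where 9.54% and 11.1% of all tested genes had such groups. DESeq2 called 12 members higher, beside 13.1% of the genes it gave an adjusted p, and 13 in either direction, beside 23.1%. Limma-voom called 4 higher, beside 6.23%. The authors' deposited table held 12 members higher and 1 lower at its adjusted p, and Abcg1 was the 1 member past 1 log2 unit there. For that table the share of all genes past the threshold was not counted. In bulk RNA of sorted cells, fewer cells of a type and less RNA per cell cannot be told apart.

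**Figure D1:**
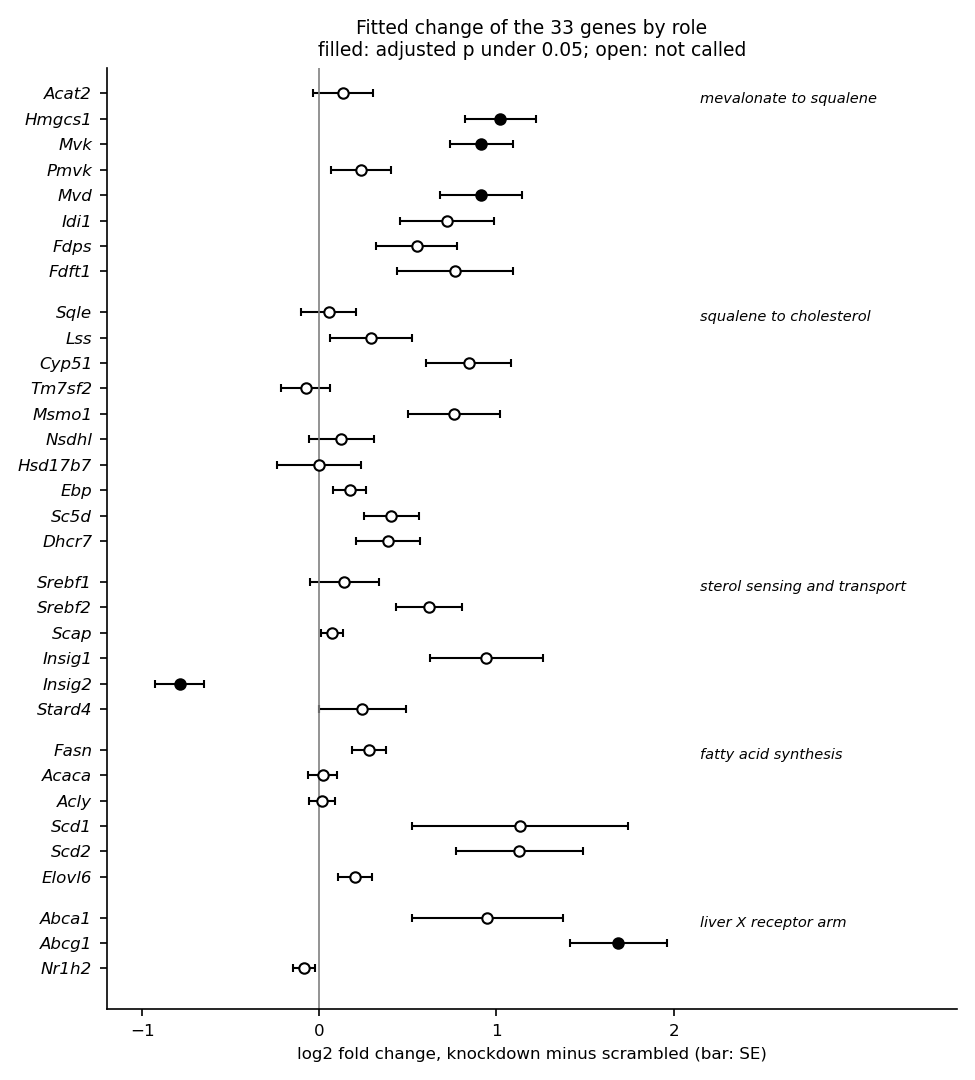
Log2 fold change of each of the 33 members, knockdown minus scrambled, from edgeR (points) with its standard error (bars), grouped by role. Abcg1 lies farthest to the right at 1.69 and Insig2 farthest to the left at -0.79; 29 points lie above 0 and 4 below.

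The enzymes from acetyl-CoA to squalene held 3 of the 4 members that edgeR called higher, as it did 8.02% of all tested genes. All 8 fitted above 0, as did 50.2% of all tested genes, with a median log2 fold change of 0.74. DESeq2 called 5 of the 8 higher, beside 13.1% of the genes it gave an adjusted p. The 8 share libraries and are not replicates of each other. Hmgcs1 (chr13:119690379-119708260 on GRCm38, GENCODE M21) encodes the synthase that makes HMG-CoA, the substrate of the step that commits carbon to mevalonate. It was at 28.6, 27.5, 23.7 and 23.1 CPM in scrambled replicates 1 to 4 and at 35.5, 53.6, 72.7 and 47.3 CPM in knockdown replicates 1 to 4. All knockdown libraries lay above all scrambled ones, and knockdown replicate 3 was highest. The log2 fold change was 1.02, with a SE of 0.20 and an adjusted p of 0.0164, and the group mean per kilobase of merged exon went from 5.60 to 11.4 CPM. The call was lost without scrambled replicate 2 (adjusted p = 0.0531) or scrambled replicate 3 (adjusted p = 0.0552). In GENCODE M21, 12.1% of its exon length lies opposite the antisense gene Gm48342, and since the authors' strand setting is not given, reads of the pair cannot be told apart.

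Mvk (chr5:114444269-114460591) encodes mevalonate kinase, which adds the first phosphate to mevalonate. It was at 9.54, 7.5, 5.94 and 6.78 CPM in the scrambled and at 11.5, 14.3, 16.8 and 13.5 CPM in the knockdown libraries, replicates 1 to 4 in each. The groups did not overlap. The log2 fold change was 0.91 (SE 0.18; adjusted p = 0.0153), and without scrambled replicate 2 the adjusted p was 0.0560. Mvd (chr8:122433601-122443422) encodes the decarboxylase that turns mevalonate diphosphate into isopentenyl diphosphate. It was at 15.2, 12.1, 10.8 and 12.1 CPM in the scrambled and at 14.7, 24.9, 33.4 and 21.4 CPM in the knockdown libraries. Knockdown replicate 1 lay inside the scrambled range and the other 3 above it. The log2 fold change was 0.91 (SE 0.23; adjusted p = 0.0337), and the call held in 2 of the 8 fits that left out 1 library: dropping knockdown replicate 2, knockdown replicate 4 or any scrambled library ended it, and the largest adjusted p was 0.0969.

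The other 5 genes of this stretch were not called by edgeR. Idi1, the isomerase of isopentenyl diphosphate, was at 7.15, 5.72, 4.51 and 5.48 CPM in the scrambled and at 6.16, 11, 13.5 and 7.09 CPM in the knockdown libraries (log2 fold change 0.72, adjusted p = 0.0949). Fdft1, the squalene synthase, was at 28.2, 20.6, 22.7 and 20.3 against 19.6, 39.8, 64.9 and 31.9 CPM (0.77, adjusted p = 0.141). In both, knockdown replicate 1 fell within or below the scrambled range, and for Idi1 knockdown replicate 4 lay within it too. DESeq2 called both genes higher (adjusted p = 0.0391 and 0.0453). Fdps, which joins the isoprenoid units into farnesyl diphosphate, had 0.55 (adjusted p = 0.127), Pmvk, the phosphomevalonate kinase, 0.24 (adjusted p = 0.370) and Acat2, a cytosolic thiolase, 0.13 (adjusted p = 0.623). Exons of Ctsb on the other strand cover 18.3% of the Fdft1 exon length, and exons of Gm43738 on the same strand 26.7% of that of Fdps. Acat2 has a close copy, Acat3, so its counts depend on how shared reads were treated.

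**Figure D2:**
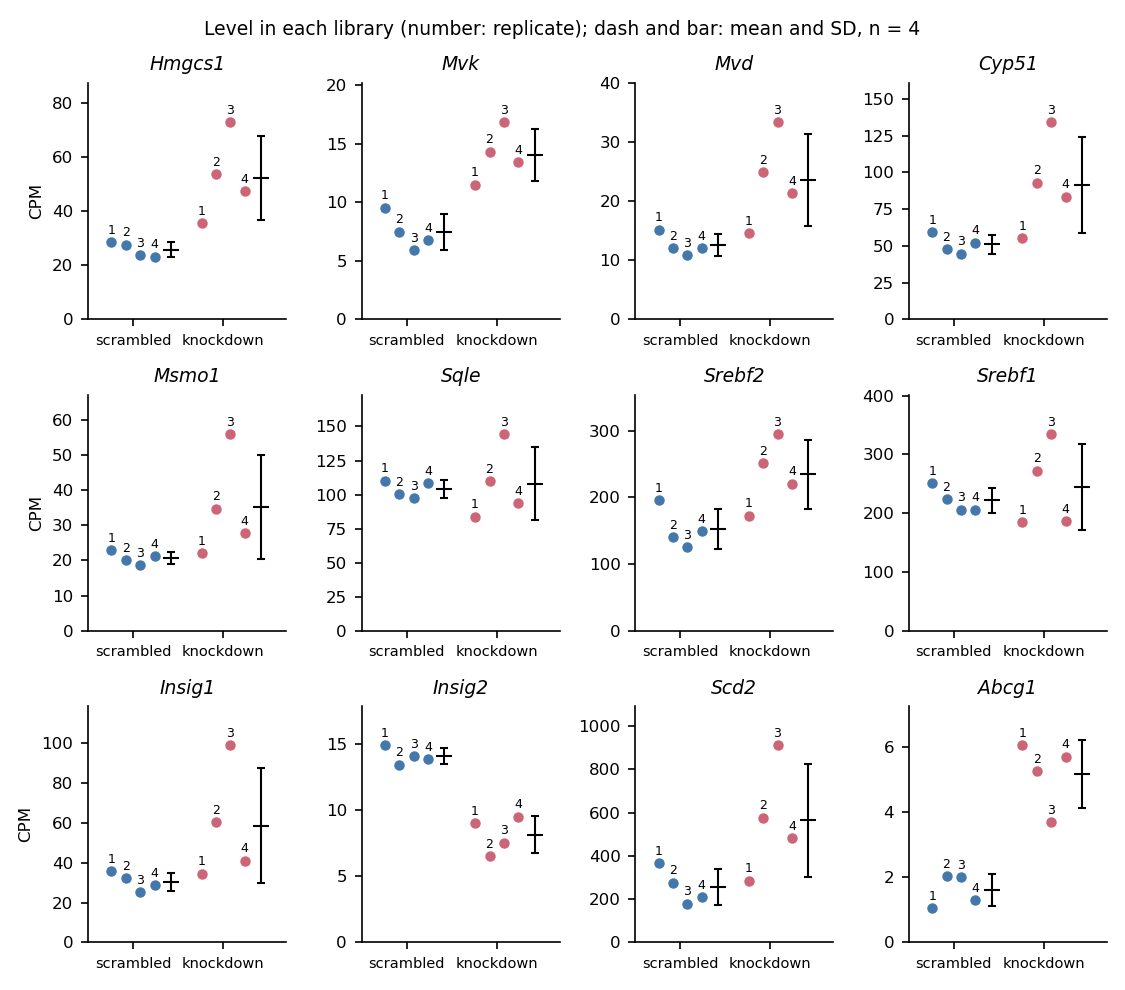
CPM in each library, on a linear axis from 0, for 12 members, with the replicate number over each point and the mean and SD of each group of 4 beside it. Hmgcs1, Mvk and Abcg1 have all knockdown libraries above all scrambled ones, Insig2 has them all below, and knockdown replicate 3 is the highest library for Insig1, Scd2 and Cyp51.

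None of the 10 enzymes from squalene to cholesterol passed the threshold by edgeR or limma-voom. DESeq2 called 2 higher, beside 13.1% of the genes it gave an adjusted p. By edgeR 3 of the 10 had an unadjusted p under 0.05, as did 4508 of all 13462 tested genes. The median log2 fold change of the 10 enzymes was 0.23, with 8 above 0, as were 50.2% of all tested genes. Cyp51, which removes the methyl group at carbon 14 of lanosterol, came closest. It was at 59.5, 47.8, 44.7 and 52.2 CPM in the scrambled and at 55.2, 93.0, 134 and 83.5 CPM in the knockdown libraries. Knockdown replicate 1 lay inside the scrambled range, and the other 3 knockdown libraries lay above it. For Cyp51 the fitted log2 difference was 0.84 (SE 0.24; adjusted p = 0.0509, and 0.00256 by DESeq2). Msmo1, which oxidises the methyl groups at carbon 4, was at 22.8, 20.0, 18.7 and 21.2 against 22.1, 34.7, 55.9 and 27.7 CPM, again with knockdown replicate 1 among the scrambled libraries (0.76, adjusted p = 0.0809, and 0.0151 by DESeq2).

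Sqle, the squalene epoxidase that is a control point of the pathway, was at 110.3, 100.4, 97.2 and 108 CPM in the scrambled and at 83.7, 109.8, 145 and 93.6 CPM in the knockdown libraries, so that the knockdown libraries lay on both sides of the scrambled ones. Its log2 fold change was 0.05 (SE 0.15; adjusted p = 0.853). Lss, the cyclase that forms lanosterol, had 0.29 (adjusted p = 0.419), Sc5d, a desaturase, 0.41 (adjusted p = 0.101), and Dhcr7, which makes cholesterol in the last step of one branch, 0.39 (adjusted p = 0.169). Ebp and Nsdhl had 0.17 and 0.12, Tm7sf2 -0.08, and Hsd17b7 0.00 to 2 decimals, with adjusted p between 0.235 and 0.997. Vps51 exons on the same strand cover 12.1% of the Tm7sf2 exon length.

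Among the sensors, Insig2 fell and Insig1 did not pass the test. Insig2 (chr1:121304353-121332589) was at 14.9, 13.4, 14 and 13.8 CPM in the scrambled and at 9.02, 6.5, 7.51 and 9.48 CPM in the knockdown libraries. The scrambled libraries lay close together, and every knockdown library was below them. The mean went from 14 ± 0.610 to 8.13 ± 1.37 CPM, which is -0.79 on the log2 scale (SE 0.14; adjusted p = 0.0115). The call held in all 8 fits that left out 1 library, with a log2 fold change between -0.87 and -0.69 and an adjusted p of at most 0.0386. These levels rest on 308 to 541 reads per scrambled and 197 to 436 per knockdown library.

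Insig1 was at 35.8, 32.3, 25.2 and 28.5 CPM in the scrambled and at 34.5, 60.2, 98.7 and 40.9 CPM in the knockdown libraries. Knockdown replicate 1 fell within the scrambled range, and knockdown replicate 3 was far above the others. On the log2 scale Insig1 differed by 0.94 (SE 0.32; adjusted p = 0.0787, and 0.00764 by DESeq2). Within each library the ratio of Insig1 to Insig2 CPM was 2.41, 2.41, 1.8 and 2.06 in the scrambled and 3.83, 9.26, 13.1 and 4.32 in the knockdown libraries. The groups of ratios did not overlap, but Insig2 alone already separated the groups and Insig1 did not. Per kilobase of merged exon, Insig1 went from 9.85 to 18.9 CPM and Insig2 from 4.04 to 2.34 CPM in the group means.

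Neither SREBP gene was called by edgeR. Srebf2 was at 196, 141, 126 and 149.6 CPM in the scrambled and at 173, 251, 295 and 221 CPM in the knockdown libraries, where scrambled replicate 1 lay above knockdown replicate 1 (log2 fold change 0.62, SE 0.18; adjusted p = 0.0553, and 0.00613 by DESeq2). Srebf1 was at 252, 224, 206 and 206 against 185, 273, 335 and 186 CPM, with the knockdown libraries both above and below the scrambled ones (0.14, SE 0.19; adjusted p = 0.664). The ratio of Srebf2 to Srebf1 CPM was 0.777, 0.628, 0.610 and 0.725 in the scrambled and 0.932, 0.922, 0.881 and 1.19 in the knockdown libraries, again without overlap. These ratios between paralogs are descriptions, with no test. Scap was between 111 and 131 CPM in all 8 libraries (0.07, adjusted p = 0.444). Stard4, a carrier of cholesterol between membranes, had 0.24 (adjusted p = 0.536).

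None of the 6 fatty acid genes passed the threshold by edgeR or limma-voom. DESeq2 called Fasn and Scd2 higher, beside 13.1% of the genes it gave an adjusted p. By edgeR 2 of the 6 had an unadjusted p under 0.05, beside 4508 of all 13462 tested genes. Acly, which makes cytosolic acetyl-CoA from citrate, was at 418 ± 27.1 CPM in the scrambled and 422 ± 34.9 CPM in the knockdown libraries (SD, n = 4; log2 fold change 0.01, adjusted p = 0.920). Acaca, the carboxylase that makes malonyl-CoA, was at 52.1 ± 2.88 and 52.8 ± 5.36 CPM (0.02, adjusted p = 0.906). Fasn, the synthase that builds palmitate, was at 442, 459, 417 and 525 against 500.3, 586, 636 and 513 CPM (0.28, SE 0.10; adjusted p = 0.0814, and 0.0471 by DESeq2). Scrambled replicate 4 lay inside the knockdown range, and the other scrambled libraries lay below it. Elovl6, which lengthens palmitate, had 0.20 (adjusted p = 0.171).

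The desaturases, which put a double bond into stearate and palmitate, had the largest SDs relative to the mean of these 6 genes, in both groups. Scd2 was at 367, 276, 179.8 and 209 CPM in the scrambled and at 285, 576, 910.4 and 482 CPM in the knockdown libraries. Knockdown replicate 1 lay inside the scrambled range and knockdown replicate 3 was highest. On the log2 scale Scd2 differed by 1.13 (SE 0.36; adjusted p = 0.0688, and 0.0303 by DESeq2). Scd1 was at 39.0, 13, 7.11 and 17.6 against 16, 29.1, 79.7 and 43.3 CPM, a log2 fold change of 1.13 as well, but with a SE of 0.61 (adjusted p = 0.232). Scd1 and Scd2 are close copies on chromosome 19, and reads that match both may have been split or dropped. The ratio of Scd2 to Scd1 CPM overlapped between the groups, at 17 ± 7.54 and 15.1 ± 4.43 (SD, n = 4).

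In the liver X receptor arm, Abcg1 rose by the largest fitted amount of the 33 members. Abcg1 (chr17:31057675-31117988), which exports cholesterol to lipoprotein particles, was at 1.05, 2.03, 2.00 and 1.30 CPM in the scrambled and at 6.04, 5.25, 3.68 and 5.70 CPM in the knockdown libraries. Every knockdown library was above every scrambled one, and knockdown replicate 3 was the lowest of the knockdown libraries. The mean went from 1.60 ± 0.493 to 5.17 ± 1.04 CPM, which is 1.69 on the log2 scale (SE 0.27; adjusted p = 0.00936), on 29 to 77 reads per scrambled and 116 to 262 per knockdown library. The call held in all 8 fits that left out 1 library, with a log2 fold change between 1.52 and 1.81. Abca1, which loads cholesterol onto lipid-poor apolipoprotein, rested on 8 to 93 reads per library. It was at 0.499, 1.26, 1.25 and 0.359 against 1.69, 1.85, 1.01 and 2.02 CPM, with knockdown replicate 3 inside the scrambled range (0.95, SE 0.43; adjusted p = 0.156). Nr1h2, the widely expressed receptor of the pair, was at 101 ± 4.96 and 95.2 ± 4.78 CPM (-0.09, adjusted p = 0.360).

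Compared per kilobase of merged exon, the members spanned a wide range in the scrambled libraries. Acly was highest at 79.1 CPM per kilobase, followed by Scd2 at 47.2, Fasn at 42.1, Srebf1 at 39.4 and Nr1h2 at 30.1. The lowest were Abca1 at 0.0812, Abcg1 at 0.219, Fdps at 1.17 and Idi1 at 1.63. In the knockdown group the mean of Scd2 was 103 CPM per kilobase and that of Acly 79.9. The order differed between libraries: Scd2 was at 52.2, 105, 167 and 88.2 and Acly at 73.4, 85.8, 85.4 and 75.0 CPM per kilobase in knockdown replicates 1 to 4, so that Acly was higher in replicate 1 and Scd2 in the other 3. Neighbouring genes in this order were not tested against each other.

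The spread among knockdown mice had the same order in most members. Knockdown replicate 3 was the highest knockdown library in 26 of the 33 members, where it was so in 33.2% of all tested genes. Knockdown replicate 1 was the lowest in 26 members, against 21.4% of all genes, and both held in 23 members, against 11.6%. The full order of replicates 3, 2, 4 and 1 from high to low was found in 19 members, against 6.6% of all tested genes. All 8 enzymes from acetyl-CoA to squalene had knockdown replicate 3 highest, and in 7 of them knockdown replicate 1 was lowest. Among scrambled libraries, replicate 1 was highest in 26 members, against 22.9% of all genes. The spread of log2 CPM was larger in the knockdown than in the scrambled group in 27 of the 33 members, against 63.9% of all tested genes. The members share libraries and are not replicates of each other, so these counts are a description.

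**Figure D3:**
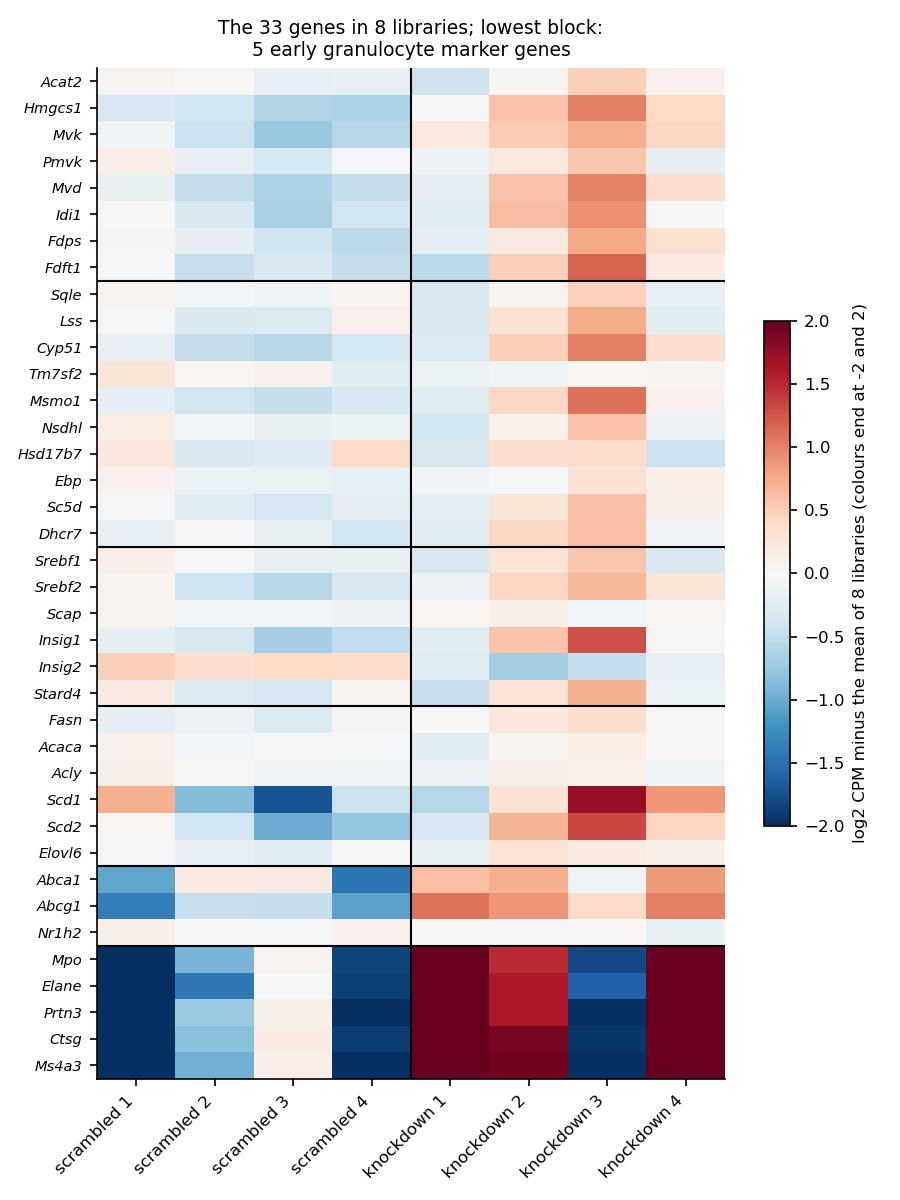
Log2 CPM of each of the 33 members (rows, in order of role) and of 5 early granulocyte markers (lowest block) in each of the 8 libraries, centred on the gene's mean over all libraries, with colours that end at -2 and 2. Knockdown replicate 3 is the highest knockdown library in 26 of the 33 members, and in the lowest block it is the lowest of them.

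Markers of early granulocytes, the cells that make the first granule proteins, moved with the libraries in another way. The summed level of 5 such genes (Mpo, Elane, Prtn3, Ctsg and Ms4a3, which encode granule enzymes and a membrane protein of this stage) was 35.4 to 329.4 CPM in the scrambled libraries and 1961, 939, 85.8 and 3580 CPM in knockdown replicates 1 to 4. By edgeR all 5 had an unadjusted p under 0.05 and 0 an adjusted one; limma-voom called 0 and DESeq2 called all 5 higher. Knockdown replicate 3, highest for most members, was thus lowest for these markers among the knockdown libraries and lay inside the scrambled range. The same library stood apart on the first principal component of all tested genes, which held 61.1% of the variance: it was at -29.0, with the scrambled libraries between -57.3 and -13.7 and the other knockdown libraries between 34.1 and 81.2. Averaged over the 33 members, the centred log2 level was -0.03, -0.21, -0.34 and -0.27 in scrambled replicates 1 to 4 and -0.15, 0.29, 0.58 and 0.12 in knockdown replicates 1 to 4. The average of the 3 liver X receptor arm genes was 0.56, 0.53, 0.10 and 0.57 in the knockdown libraries, and there replicate 3 was lowest.

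**Figure D4:**
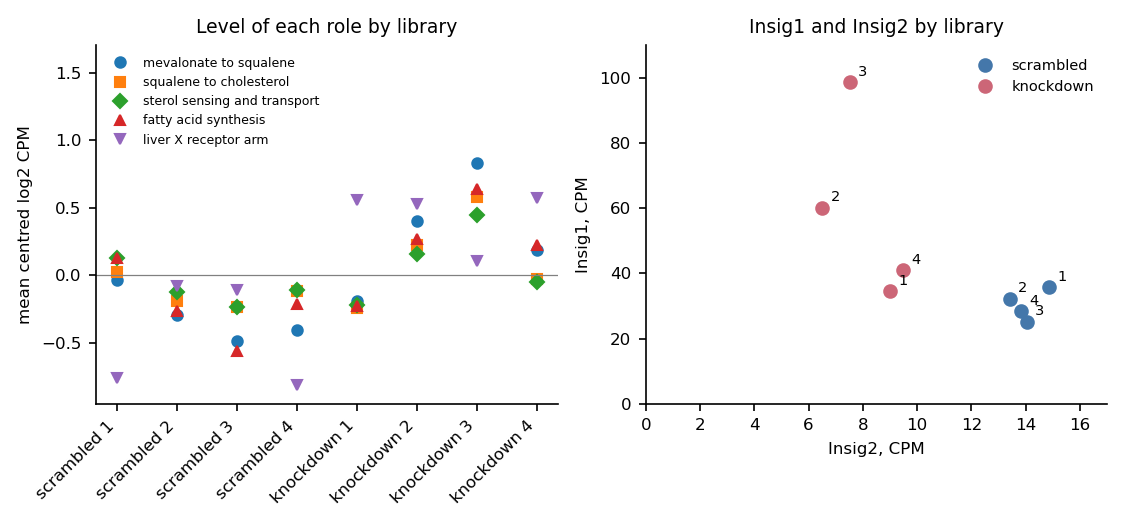
Left, mean centred log2 CPM of the genes of each role in each of the 8 libraries; right, Insig1 against Insig2 CPM, 1 point per library with its replicate number. The genes from acetyl-CoA to squalene are highest in knockdown replicate 3, at 0.83, where the liver X receptor arm is lowest of the knockdown libraries, at 0.10, and every knockdown library lies to the left of every scrambled one for Insig2.

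With the early granulocyte level as a covariate in the edgeR fit, 16 members were called higher and 1 lower, beside 3.34% and 1.63% of all tested genes, and the median log2 fold change of the members was 0.64. All 5 members called without it stayed called in the same direction. Insig1 then had a log2 fold change of 1.52 (adjusted p = 0.00644), Scd2 1.76 (adjusted p = 0.0232), Srebf2 0.99 (adjusted p = 0.0103) and Pmvk 0.63 (adjusted p = 0.00941). Abcg1 went the other way, from 1.69 to 1.19 (adjusted p = 0.0289), and Abca1 from 0.95 to 0.22. The covariate is measured in the same libraries and is not independent of the group. Without knockdown replicate 1, edgeR called 9 members higher, beside 3.96% of all tested genes. Leaving out knockdown replicate 3, the highest library for most members, gave 5 of the 33, beside 14.1% of all tested genes. In that fit the sign of 7 members reversed. Without scrambled replicate 2 or 3 edgeR called 1 and 2 members higher, beside 1.99% and 2.45%.

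Other cell types were followed by their markers. The sorted cells had high erythroid transcripts, with 10 markers summing to 6543 to 7424 CPM in the scrambled and 4753 to 6954 CPM in the knockdown libraries. The largest parts were Car2, at group means of 3455 and 2110 CPM, and Ermap, at 1509 and 984 CPM. Of the 10, edgeR called 2 higher, Alas2 and Hbb-bs, beside 8.02% of all tested genes. It called 5 lower, Klf1, Gata1, Epor, Ermap and Car2, beside 7.29%, so the list moved in both directions. Of 6 megakaryocyte markers 5 were tested and 2, Itga2b and Gp1ba, were higher, beside 8.02% of all tested genes. Their sum was 67.9 to 86.3 against 131 to 213 CPM over all 6 markers. Monocyte and macrophage markers, of cells known to express Abcg1, summed to 4.27 to 12 CPM in the scrambled and 9.23 to 127 CPM in the knockdown libraries. Of the 7, only 4 had enough reads to be tested by edgeR and limma-voom, which both called 0. By edgeR 3 had an unadjusted p under 0.05, and DESeq2 called 4. Adgre1, not tested by edgeR, had 34, 44, 1 and 344 reads in knockdown replicates 1 to 4 and at most 8 in any scrambled library. Stromal and endothelial markers summed to 45.5 to 61.2 against 50.8 to 761 CPM, the highest value being knockdown replicate 1, where Col1a1 was at 331 CPM and at most 6.86 CPM elsewhere. Of these 6 markers edgeR tested 2 and called 1 higher, Pecam1, an adhesion molecule of endothelium that blood cells also carry. It was at 3.88, 5.35, 5.89 and 2.92 CPM in the scrambled and at 32.6, 29.4, 9.32 and 45.2 CPM in the knockdown libraries, without overlap (log2 fold change 2.68, SE 0.46; adjusted p = 0.0123), and kept its call in all 8 fits that left out 1 library. Cdh5, specific to endothelium, had at most 0.0277 CPM in any library. Adipocyte markers summed to 10.4 to 30.4 against 7.63 to 19.9 CPM. Most of this was Lpl, at 10.2 to 28.7 against 7.15 to 19.1 CPM. Adipoq and Plin1 had at most 0.277 CPM and Fabp4 at most 1.93 CPM in any library. The 5 T and NK cell markers summed to 1.8 to 8.10 against 2.03 to 86.6 CPM. Nearly all of this was Nkg7, at 1.8, 5.57, 8.10 and 2.25 CPM in the scrambled and at 27.6, 18.7, 2.00 and 86.5 CPM in the knockdown libraries (adjusted p = 0.0824 by edgeR and 0.0199 by DESeq2), with knockdown replicate 3 inside the scrambled range. Of the other markers in that list Cd3e was at 0 in all 8 libraries, and Cd3g, Cd3d and Ncr1 had at most 0.121 CPM in any. The part of these cells in the results on the 33 genes was not tested beyond the early granulocyte covariate.

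Of a further 44 genes of the same pathways, 43 were in the table and 41 were tested. By edgeR 8 of the 41 were higher (19.5%, beside 8.02% of all tested genes) and 1 was lower (2.44%, beside 7.29%). Their median log2 fold change was 0.03, beside 0.00 over all tested genes. Acacb, the mitochondrial acetyl-CoA carboxylase, was at 1.47, 1.05, 1.38 and 1.44 CPM in the scrambled and at 4.71, 4.59, 4.09 and 3.07 CPM in the knockdown libraries, without overlap (log2 fold change 1.62, SE 0.22; adjusted p = 0.00463). Its cytosolic counterpart Acaca, above, differed by 0.02. Elovl5, which elongates polyunsaturated fatty acids, was at 40, 35.5, 39.4 and 33.2 against 65.9, 67.1, 52.6 and 89.0 CPM, also without overlap (0.89, SE 0.15; adjusted p = 0.00984). Lpcat3, which puts polyunsaturated chains into phospholipids and is a liver X receptor target in other tissues, fell from 148 ± 11.9 to 99.2 ± 7.54 CPM (-0.58, SE 0.08; adjusted p = 0.00503). These 3 kept their call in all 8 fits that left out 1 library.

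The other 6 kept it in 1 to 4 of those 8 fits. Me1, the cytosolic malic enzyme that supplies NADPH, rose from 4.78 ± 1.8 to 11 ± 2.16 CPM (log2 fold change 1.2, adjusted p = 0.0294). Acsl3, a ligase that activates long-chain fatty acids, rose from 35.5 ± 2.34 to 52.3 ± 12 CPM (0.56, adjusted p = 0.0383). Tmem97, a sterol-regulated membrane protein, rose from 38.5 ± 1.25 to 50.3 ± 6.03 CPM (0.39, adjusted p = 0.0264), and Aacs, which activates acetoacetate for sterol synthesis, from 26.6 ± 4.57 to 40 ± 8.48 CPM (0.59, adjusted p = 0.0484). Abca7, a lipid transporter, rose from 180.4 ± 7.32 to 227 ± 24.9 CPM (0.33, adjusted p = 0.0287).

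Soat1, which esterifies cholesterol for storage, varied widely among the knockdown libraries. It was at 0.471, 2.18, 2.70 and 1.26 CPM in the scrambled and at 15.7, 7.49, 2.50 and 41.4 CPM in the knockdown libraries. Knockdown replicate 3 lay inside the scrambled range, as it did for the early granulocyte markers. The log2 fold change was 3.34 (SE 0.89; adjusted p = 0.0425), the call held in 1 of the 8 fits that left out 1 library, and with the early granulocyte covariate it was 0.85 (adjusted p = 0.220).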

How the data were processed

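The deposited table holds raw read counts per gene in 8 libraries, with no normalization by the authors. Beside them stand the authors' mean normalized signal per gene, their log2 fold changes with standard errors, the test statistic (a score) of the authors' Wald test, and the authors' p-values, raw and adjusted. The design text and, per the labels, the submitters' processing notes name CASAVA 1.8, DESeq2 1.18.1, R 3.4.3 and biomaRt 2.34.2. The aligner, counting program, strand setting, annotation and genome build have no mention in the labels or headers. Library kits per the labels were stranded total RNA kits from 500 ng of RNA with 2 ribosomal RNA depletion kits, and no label says which library had which. Columns were matched to samples by the labels, and 0 were left unmatched. Groups and replicate numbers are those of the sample titles.

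Counts were tested with edgeR 4.0.16 (R 4.3.3): filterByExpr by group, which kept 13462 genes, TMM factors (0.965 to 1.03), robust quasi-likelihood F test, two-sided, all 8 libraries, no covariate, Benjamini-Hochberg over all tested genes, threshold 0.05. CPM use the same factors, and centred levels use log2 CPM with a prior count of 2. DESeq2 1.42.0, limma-voom (limma 3.58.1), other scalings, filters, a replicate block, an early granulocyte covariate and leaving out each library were alternatives. The tests were first run on simulated data. Within-group pairs of libraries differed by chi-square per degree of freedom of 10.7 to 88.9, so none was a copy. No label says what a replicate number marks. The main fit therefore took the numbers as names only. The libraries' own deviations could not decide this, and the fit with a replicate block is given below.

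Members are described in order of role. Per-library values are given for those called, those on the other side of the threshold by DESeq2, and paralog pairs. Of the further pathway genes, the called ones are named. Members, lists and tests were chosen with earlier results of these data known. Lengths and gene positions are from GENCODE M21 and promoters from RefSeq on GRCm38.p6, matched by symbol.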

Additional observations from a re-analysis of the deposited data

Results flagged for a closer look

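Among the 33 members, 66 groups of 4 libraries were checked for a library far from the other 3 by Dixon's ratio, the gap to the nearest library over the whole range, at its 95% critical value. Chance alone marks about 1 in 20 groups. In the scrambled group Ebp, the isomerase of the sterol ring double bond, was at 61.4 CPM in replicate 1, while the other 3 libraries lay between 51.7 and 53.0 CPM (ratio 0.860). Acaca was at 56.4 CPM in the same library and between 50.4 and 50.9 CPM in the others (ratio 0.913). Neither gene was called between the groups.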

How the results depend on the processing

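The 5 calls were all kept under DESeq2, limma-voom, RLE and upper quartile scaling, no low count filter, a filter of 1 CPM in 4 libraries and the early granulocyte covariate. The main fit called 4 members higher, beside 8.02% of all tested genes. DESeq2 gave 12, beside 13.1% of the genes it gave an adjusted p, and the covariate 16, beside 3.34%. Leaving out 1 library gave 1 to 9 members higher. The number was 1 without scrambled replicate 2 (1.99% of all tested genes) and 2 without scrambled replicate 3 (2.45%). It was 9 without knockdown replicate 1 (3.96%) and 5 without knockdown replicate 3 (14.1%). The 1 member lower under every alternative was Insig2. With the replicate block, edgeR called 0 members higher, beside 1.45% of all genes, and kept Insig2 lower. That fit called 1 of 41 further genes higher (8 without the block) and 400 genes in all. Correlations of same-numbered deviations were -0.42, 0.02, -0.56 and -0.22. The genes vary together, with 61.1% of the variance on the first component. These correlations therefore cannot show whether a number marks a shared donor or day. The median of 0.29 was 0.64 with the covariate and 0.20 to 0.43 with 1 library left out. Of the further genes, 8 were higher, beside 8.02% of all tested genes. With limma-voom 5 were so, beside 6.23%, and without a filter 5, beside 3.02%. With 1 library left out 2 to 8 were so. The number was 2 without scrambled replicate 2 or 3, beside 1.99% and 2.45%. Lower ones numbered 1, but 4 by DESeq2 and 1 to 4 with 1 library left out (4 without scrambled replicate 4). Over all genes 2062 calls became 3588 by DESeq2, 668 with the covariate and 526 to 3425 with 1 library left out.

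The 5 called members kept their sign throughout, and signs changed in 9 uncalled ones. Hsd17b7 had 0.00230 with RLE, 0.0235 with upper quartile, 0.0140 with the 1 CPM filter and 0.45 with the covariate. Without a filter Acaca had -0.00370 and Acly -0.00861, and with the covariate Nr1h2 had 0.00606. With 1 library left out the ranges were -0.036 to 0.27 for Acat2, -0.13 to 0.16 for Sqle, -0.090 to 0.25 for Nsdhl, -0.14 to 0.13 for Hsd17b7, -0.057 to 0.25 for Srebf1, -0.00548 to 0.40 for Stard4, -0.041 to 0.086 for Acaca and -0.029 to 0.055 for Acly. The causes were not tested. Abca1 and Abcg1, with 8 to 262 reads per library, have the counting error of such numbers.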
